A study of Mus musculus with 10 samples.

Results

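The genes described here are 10 genes of MHC class I antigen presentation and the immunoproteasome, taken by name out of 17279 genes in the count table. They are the class I heavy chains H2-K1 and H2-D1, the light chain B2m, the peptide transport and loading genes Tap1, Tap2 and Tapbp, the immunoproteasome subunits Psmb8, Psmb9 and Psmb10, and the transactivator Nlrc5. They were measured by RNA sequencing in macrophages of the small intestinal lamina propria, sorted as CX3CR1-GFP+ cells from the peeled mucosa of mice labelled C57BL6/J. In the sham group (5 libraries) cells were collected 24 h after sham surgery, and in the pMCAO group (5 libraries) 24 h after permanent middle cerebral artery occlusion, a surgical model of ischaemic stroke in which a brain artery stays closed. The labels name no other treatment or allele, and do not give the GFP allele, the age or the sex of the animals. Replicate 1 of each group has a library name that marks it as a pool, and the other 8 libraries do not. The labels call the replicates biological.

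MHC class I molecules display short peptides from the inside of a cell to CD8 T cells and natural killer cells. The peptides are cut by the proteasome, in which interferon-gamma replaces the catalytic subunits Psmb5, Psmb6 and Psmb7 by Psmb8, Psmb9 and Psmb10, and are then carried into the endoplasmic reticulum by the TAP transporter and loaded with the help of tapasin. Nlrc5 drives transcription of most of these genes by binding, through other factors, to a promoter module that ends in an inverted CCAAT box.

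Of the 10 genes, 7 lie on chromosome 17, in or near the mouse MHC (coordinates from GENCODE M21 models on GRCm38). In order along that chromosome they are Tapbp (ENSMUSG00000024308, chr17:33915899-33929292, plus strand), H2-K1 (ENSMUSG00000061232, chr17:33996017-34000347, minus strand), Psmb9 (ENSMUSG00000096727, chr17:34181987-34187764, minus strand), Tap1 (ENSMUSG00000037321, chr17:34187553-34197225, plus strand), Psmb8 (ENSMUSG00000024338, chr17:34197721-34201454, plus strand), Tap2 (ENSMUSG00000024339, chr17:34203527-34216321, plus strand) and H2-D1 (ENSMUSG00000073411, chr17:35262730-35267499, plus strand). B2m (ENSMUSG00000060802) lies at chr2:122147686-122153083 (plus strand), Psmb10 (ENSMUSG00000031897) at chr8:105935735-105938444 (minus strand) and Nlrc5 (ENSMUSG00000074151) at chr8:94434356-94527272 (plus strand). Tap1 and Psmb9 are divergent neighbours, with RefSeq start sites 226 bases apart, and their exons share 212 bases on opposite strands. Whether reads were counted by strand is not given in the sources used here, so reads in that overlap could not be assigned to one of the pair. The same holds for 904 bases of Tapbp, 533 bases of Tap2 and 498 bases of Psmb8 that are shared with genes on the other strand (Gm19412, Gm15821 and Gm20496).

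Promoters of 8 of the 10 genes were found in the RefSeq promoter table (GRCm38.p6). No entry was found for Tap2 and Nlrc5. The 250 bases before each start were searched on both strands for the interferon response element (GAAA followed after any 2 bases by GAAA), the gamma-activated sequence (TTCNNNGAA), a kappa B element (the first letters in capitals in the H2-K1 stretch shown here), CCAAT, and TGACG followed within 30 bases by ATTGG, which is the inverted CCAAT box and so overlaps the CCAAT search. The last of these, the letters of the module named above, was found in 3 of the 8 promoters (B2m, H2-K1 and H2-D1) and in 0.79% of 32536 promoters. The kappa B element was found in 2 (H2-K1 and H2-D1, against 0.0861% of promoters), the interferon response element in 1 (B2m, 2.98%), the gamma-activated sequence in 1 (Psmb8, 7.04%) and CCAAT in 6 (33.8%). The stretches of B2m (chr2:122147533-122147653, plus strand) and H2-K1 (chr17:34000348-34000472, minus strand) are shown because they hold the module in front of both chains of the class I molecule, with the matched letters in capitals and the rest in lower case.
B2m: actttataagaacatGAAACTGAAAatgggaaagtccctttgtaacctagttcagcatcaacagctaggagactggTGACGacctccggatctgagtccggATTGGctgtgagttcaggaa
H2-K1: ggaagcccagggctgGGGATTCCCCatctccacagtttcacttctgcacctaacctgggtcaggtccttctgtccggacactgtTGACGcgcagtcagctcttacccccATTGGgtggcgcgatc
In B2m the capitals mark the interferon response element, TGACG and ATTGG, and in H2-K1 the kappa B element, TGACG and ATTGG. From a second RefSeq start of H2-K1 the same stretch runs to 129 bases (chr17:34000344-34000472), and aligned without gaps it was identical to that of H2-D1 (chr17:35262909-35263037, plus strand) at 113 positions (87.6%). In the GENCODE models all 129 bases of this H2-D1 stretch lie in exons of H2-D1. The 39 bases around the Psmb8 match likewise lie in its own exons, as do parts of the windows of Psmb9 and Tapbp. For the printed B2m and H2-K1 stretches this was 0 bases. A match of letters describes the sequence and was not tested as a binding site. Only exact letters were counted. A promoter without a match, such as that of H2-K1 or H2-D1 for the interferon response element, may still hold a variant of the element.

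Total counts lay between 18894151 and 60665972 in sham libraries and between 6430643 and 28672285 in pMCAO libraries. All 10 genes passed the filter on low counts, and the smallest count of any of them in any library was 194 (Tap2), so none was limited by a count near 0. Together they took from 0.679% to 0.868% of the counts in sham libraries and from 0.637% to 0.904% after pMCAO. Levels are given as CPM, counts relative to the library total, scaled by TMM, a normalisation that sets the typical gene equal between libraries. The TMM factor of sham replicate 5 was the largest, at 1.27, which lowers its values relative to plain CPM. Sham replicate 5 and pMCAO replicate 4 also stood apart in Xist, the RNA of the inactive X chromosome, at 2237 and 4686 CPM against 1.27 to 4.88 CPM in the other 8 libraries. The sorted cells carried the macrophage genes Csf1r (1028 ± 326 CPM in sham and 1283 ± 338 CPM after pMCAO, SD, n = 5 each), C1qa (342 ± 158 and 354 ± 174 CPM) and Cx3cr1 (161 ± 55.2 and 179 ± 43.0 CPM). Immunoglobulin genes of plasma cells took from 0.524% to 14.1% of sham counts and from 0.781% to 16.7% of pMCAO counts. In bulk libraries such as these, a lower share of a cell type and less RNA per cell cannot be told apart.

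The first question was how strongly each step of the pathway was expressed in these macrophages. Scaled to exon length, B2m stood far above the rest, at 5429 CPM per kb in sham, followed by H2-D1 (449 CPM per kb) and H2-K1 (398 CPM per kb). The immunoproteasome subunits Psmb10 (72.5 CPM per kb), Psmb8 (44.0 CPM per kb) and Psmb9 (27.6 CPM per kb) and the loading factor Tapbp (32.8 CPM per kb) formed the middle. Tap1 (13.1 CPM per kb), Tap2 (9.51 CPM per kb) and Nlrc5 (7.13 CPM per kb) were lowest. Of the 9 neighbouring pairs in this order, 5 kept it in 10 of 10 libraries. H2-D1 exceeded H2-K1 in 9, Tap1 exceeded Tap2 in 9 and Tap2 exceeded Nlrc5 in 8 of 10, with ranges that overlapped. Psmb8 exceeded Tapbp in only 6 of 10 libraries, so those neighbours did not differ beyond their spread. The length-scaled order was therefore light chain, heavy chains, proteasome and tapasin, transporter and transactivator. Exon length here covers the exons of all annotated transcripts of a gene, and the order within these steps depended on it. It was 2.938 kb for H2-K1 and 2.579 kb for H2-D1, but their longest coding transcripts have 1619 and 2102 bases. By transcript length H2-K1 would stand above H2-D1. Psmb9 (3.66 kb against 1352 bases) would likewise stand above Tapbp (3.628 kb against 2898 bases).

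**Figure D1:**
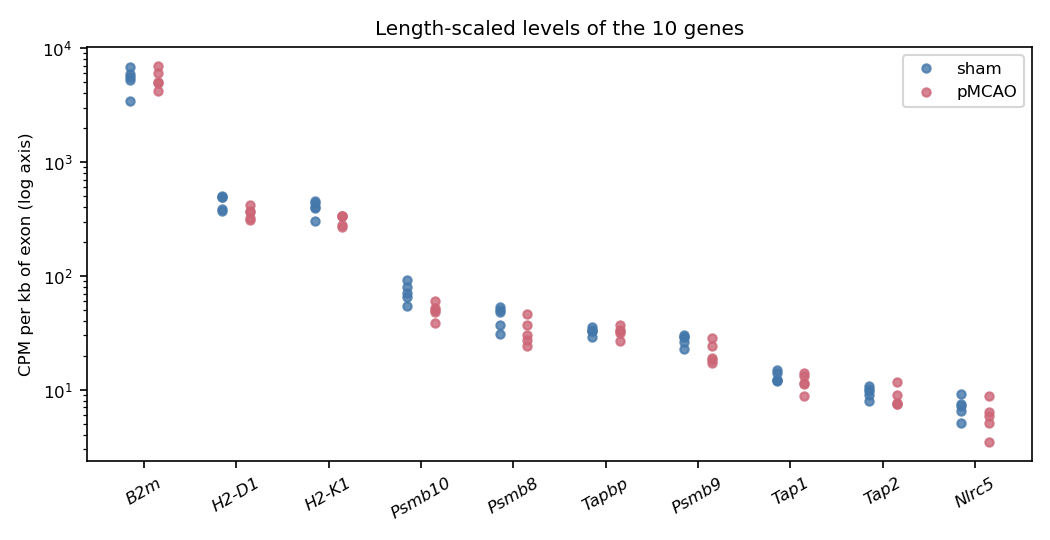
Length-scaled level of each of the 10 genes (CPM per kb of exon, log axis) in each of 5 sham (blue) and 5 pMCAO (red) libraries, with genes ordered by the sham mean. B2m (5429 CPM per kb in sham) sits above the heavy chains (449 and 398 CPM per kb), and Nlrc5 (7.13 CPM per kb) is lowest.

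The second question was whether these levels differed 24 h after pMCAO. With edgeR's quasi-likelihood test and Benjamini-Hochberg adjustment over 16949 genes, 0 of the 10 genes and 0 of all genes passed an FDR of 0.05 (0.0% called). The FDR of the 10 genes was at least 0.922. At an unadjusted p under 0.05 there were 799 genes (4.71% of those tested), 416 of them lower after pMCAO (2.45%), and 1 of the 10 genes, Psmb10. With DESeq2, 3 of all genes and 0 of the 10 passed, and 3 of the 10 were at an unadjusted p under 0.05, as were 1011 of the 16949 genes. With limma-voom, 0 of all genes passed, and 4 of the 10 were at an unadjusted p under 0.05, as were 882 of all genes. By estimate alone, 9 of the 10 genes were below 0 on the log2 scale after pMCAO, where 50.6% of all genes were, and the median log2 fold change of the 10 was −0.30 against −0.0059 over all genes tested. An estimate of −0.3 or lower was found for 5 of the 10 genes (H2-K1, H2-D1, Psmb8, Psmb9 and Psmb10) and for 23.9% of all genes. The groups overlapped in every one of the 10 genes, where they did not overlap in 0.985% of all genes. Several of the 10 are neighbours and are known to be induced together, so they are not independent of each other.

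**Figure D2:**
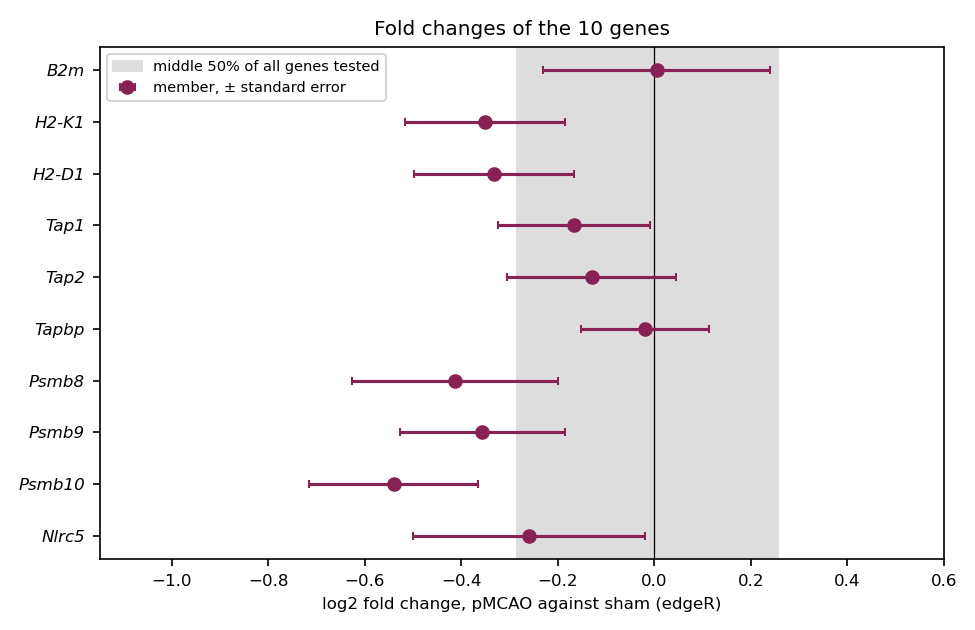
Log2 fold change of pMCAO against sham for each of the 10 genes with its standard error (edgeR, 5 libraries in each group), over a grey band that spans the middle 50% of all genes tested. The 3 immunoproteasome subunits and both heavy chains lie to the left of the band, while B2m (0.0048) and Tapbp (−0.019) lie within it.

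The heavy chains bind the peptide and present it. H2-K1 was at 1154, 1279.7, 1189, 1337 and 886 CPM in sham replicates 1 to 5 and at 986, 983, 995, 828 and 789 CPM in pMCAO replicates 1 to 5. All 5 pMCAO libraries were below the sham mean, but only 2 were below the lowest sham library, replicate 5, so the groups overlapped. The log2 fold change was −0.35 (SE 0.17), with an unadjusted p of 0.0555 and an FDR of 0.922 in edgeR's test, and the pMCAO mean was 78.4% of the sham mean. Without TMM scaling, on plain CPM, sham replicate 5 stood at 1129 CPM and the groups did not overlap, with sham libraries from 1125 to 1212 CPM and pMCAO libraries from 870.1 to 1046 CPM, a pattern seen in 0.596% of all genes in this direction. This scaling was tried after the values had been seen, and on it H2-K1 was also 1 of 2 of the 10 genes with an unadjusted p under 0.05. The separation of H2-K1 thus depended on how 1 library was scaled.

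H2-D1 was at 1269, 1283, 1288, 995 and 954 CPM in the sham libraries and at 953, 935, 1077, 837 and 794 CPM after pMCAO. Sham replicates 1 to 3 were above every pMCAO library, while sham replicates 4 and 5 lay among them. H2-D1 thus had a log2 fold change of −0.33 (SE 0.17, unadjusted p = 0.0671, FDR 0.922, edgeR). Of the 100-base windows in its longest coding transcript, 4.64% also occurred in other genes, chiefly other class I genes such as H2-Q1 and H2-T23, against 0.0% for H2-K1, so a small part of its reads may be counted elsewhere or left out.

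B2m, the light chain that class I molecules need to reach the cell surface, had nearly the same mean in both groups. Its level was 5829.9, 4850.3, 4531, 5149 and 2985 CPM in sham and 6020.0, 4303, 5226, 4228 and 3645 CPM after pMCAO. The lowest library was a sham library and the highest a pMCAO library, and the means were 4669 ± 1057 and 4685 ± 937 CPM (SD, n = 5 each). The log2 fold change was 0.0048 (SE 0.24, unadjusted p = 0.984, FDR 0.999, edgeR), and its sign changed in 7 of 20 alternative fits.

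**Figure D3:**
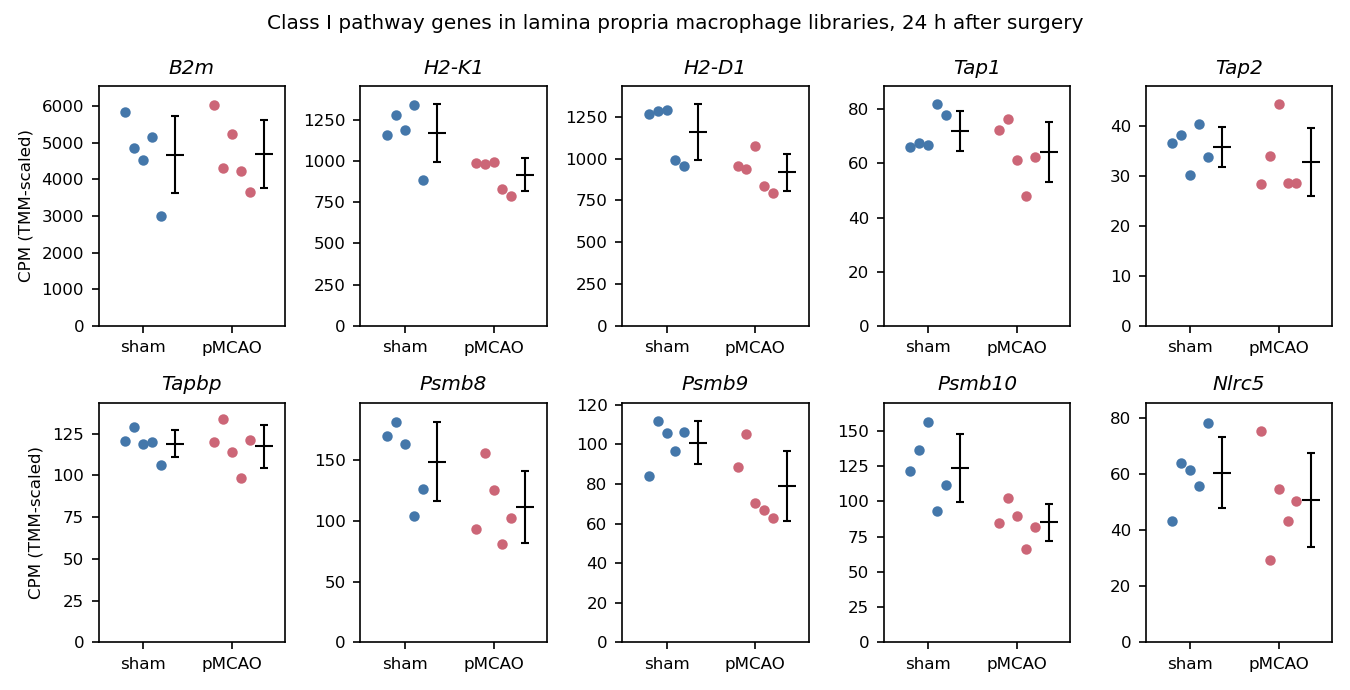
TMM-scaled CPM of the 10 genes in each of 5 sham (blue) and 5 pMCAO (red) libraries, replicates 1 to 5 from left to right, with the mean and SD in black beside each group, and axes that start at 0. The groups overlap in every panel, and Psmb10 (124 ± 24.0 against 85.0 ± 13.3 CPM) is the panel with the largest shift relative to its spread.

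Psmb8, Psmb9 and Psmb10 are the inducible catalytic subunits, which alter the cuts of the proteasome toward peptides that fit class I molecules. Psmb10 was at 121.5, 136, 156, 92.8 and 112 CPM in sham and at 84.9, 102, 89.8, 65.9 and 81.9 CPM after pMCAO. All 5 pMCAO libraries were below the sham mean and 4 were below the lowest sham library, with only pMCAO replicate 2 inside the sham range. The pMCAO mean of Psmb10 was 68.8% of its sham mean (log2 fold change −0.54, SE 0.17), and 0.684% of all genes had a smaller p. Its unadjusted p was 0.0090 and its FDR 0.922 in edgeR's test. The p stayed under 0.05 in all 21 fits that were run, from 0.0022 to 0.0317, and in 0 of them did Psmb10 pass an FDR of 0.05.

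Psmb8 was at 169.9, 181, 163, 104 and 126 CPM in sham and at 93.4, 156, 126, 81.2 and 103 CPM after pMCAO. Sham replicates 1 to 3 were above all pMCAO libraries, and sham replicates 4 and 5 were among them, as for H2-D1. Its log2 fold change was −0.41 (SE 0.21, unadjusted p = 0.0760, FDR 0.922, edgeR). Psmb9 was at 84.1, 112, 106, 96.6 and 106 CPM in sham and at 88.7, 105, 70.3, 66.9 and 63.0 CPM after pMCAO. Here pMCAO replicates 3 to 5 were below every sham library, while pMCAO replicates 1 and 2 lay within the sham range. For Psmb9 the log2 fold change was −0.36 (SE 0.17, unadjusted p = 0.0595, FDR 0.922, edgeR). All 3 inducible subunits were thus between 68.8% and 78.1% of their sham means, and none was separated from sham beyond the spread of the libraries after adjustment.

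Tap1 and Tap2 form the peptide transporter, and tapasin, the product of Tapbp, bridges it to the class I molecule. Tap1 was at 66.1, 67.4, 66.8, 81.8 and 77.7 CPM in sham and at 72.3, 76.4, 61.3, 48.1 and 62.5 CPM after pMCAO. The lowest 3 libraries were pMCAO libraries, but pMCAO replicates 1 and 2 exceeded 3 of the sham libraries. Tap1 had a log2 fold change of −0.17 (SE 0.16, unadjusted p = 0.311, FDR 0.925, edgeR). Tap2 was at 36.8, 38.3, 30.3, 40.6 and 33.9 CPM in sham and at 28.4, 34.1, 44.5, 28.7 and 28.7 CPM after pMCAO. The highest Tap2 value of all 10 libraries was that of pMCAO replicate 3, and the log2 fold change was −0.13 (SE 0.18, unadjusted p = 0.474, FDR 0.946, edgeR). Tapbp was the steadiest of the 10, from 106 to 129 CPM in sham (mean 119 ± 8.06 CPM) and from 98.3 to 134 CPM after pMCAO (mean 117 ± 12.9 CPM), with a log2 fold change of −0.019 (SE 0.13, unadjusted p = 0.889, FDR 0.992, edgeR). Its sign turned under DESeq2, under 2 other scalings and in 2 fits without a library. Tap1 was at −0.086 without pMCAO replicate 4 and −0.055 without the 2 libraries high in Xist, and Tap2 at −0.27 without pMCAO replicate 3, −0.084 without pMCAO replicate 1 or 5 and −0.074 without both pooled libraries.

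Nlrc5 was at 43.2, 63.9, 61.4, 55.9 and 78.2 CPM in sham and at 75.3, 29.5, 54.8, 43.2 and 50.3 CPM after pMCAO. Values were scattered in both groups, and the sole pMCAO library outside the sham range was replicate 2. For Nlrc5 the log2 fold change was −0.26 (SE 0.24, unadjusted p = 0.301, FDR 0.925, edgeR). The size of the Nlrc5 estimate rested on single libraries. It was −0.45 without pMCAO replicate 1, −0.16 without sham replicate 5, −0.12 without pMCAO replicate 2, −0.55 without both pooled libraries (unadjusted p = 0.0375 in edgeR's test), −0.10 without the 2 libraries high in Xist and −0.40 with limma-voom.

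Ratios within a library do not depend on how libraries are scaled, and 5 were compared by two-sided exact permutation over every way to assign the 10 libraries to 2 groups of 5, where the smallest p is 0.0079. The first 3 set each inducible subunit against the subunit it replaces. The constitutive Psmb5 (31.3 ± 12.5 CPM in sham and 23.7 ± 8.13 CPM after pMCAO), Psmb6 (61.0 ± 12.2 and 47.9 ± 15.9 CPM) and Psmb7 (71.2 ± 12.8 and 58.4 ± 17.0 CPM) had log2 fold changes of −0.40 (SE 0.34), −0.35 (SE 0.24) and −0.29 (SE 0.21), with unadjusted p of 0.264, 0.173 and 0.204 and FDRs of at least 0.922 in edgeR's test. These estimates moved with single libraries. Psmb5 was at −0.63 without sham replicate 4, −0.23 without sham replicate 2 and −0.24 without both pooled libraries. Psmb6 was at −0.20 without pMCAO replicate 1, −0.54 without pMCAO replicate 2 and −0.12 without both pooled libraries, and Psmb7 at −0.47 without pMCAO replicate 2 and −0.18 without the 2 libraries high in Xist.

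The Psmb8 to Psmb5 ratio was 5.13 in sham and 4.83 after pMCAO (geometric means), a log2 difference of −0.088 (exact permutation p = 0.786, adjusted over 5 ratios 1.0), which was 0.13 without sham replicate 4. The Psmb9 to Psmb6 ratio was 1.67 and 1.69, a log2 difference of 0.012 (exact permutation p = 1.0, adjusted 1.0). That value rested on pMCAO replicate 1, where the ratio was 3.20 against 1.34 to 1.62 in the other pMCAO libraries. Without it the difference was −0.22 (exact permutation p = 0.294), without sham replicate 1 it was −0.13, and without both of these pooled libraries it was −0.36 (exact permutation p = 0.0286, adjusted p = 0.0714). The Psmb10 to Psmb7 ratio was 1.74 and 1.49, a log2 difference of −0.22 (exact permutation p = 0.135, adjusted 0.337), with 4 of 5 pMCAO libraries below the sham mean. No ratio of an inducible subunit to its counterpart passed an adjusted p of 0.05, with all libraries or without any of those named. Without both pooled libraries, however, the groups did not overlap in the Psmb9 to Psmb6 ratio. There 0.0286 is the smallest p that the exact test can give, so missing the threshold does not show that the ratio was unchanged. Part of the reads of Psmb5 and Psmb7 may be counted elsewhere or left out, since 24.9% and 19.98% of the 100-base windows of their transcripts also occur elsewhere.

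The remaining ratios concern the class I molecule itself. H2-K1 and H2-D1 had about equal counts, not corrected for length, with a ratio of 1.01 in sham and 0.998 after pMCAO. The log2 difference was −0.016 (exact permutation p = 0.944, adjusted 1.0). The ratio of B2m to the sum of both heavy chains was 2.41, 1.89, 1.83, 2.21 and 1.62 in sham and 3.10, 2.24, 2.52, 2.54 and 2.30 after pMCAO. All 5 pMCAO libraries were above the sham mean, and sham replicate 1 reached into the pMCAO range. The log2 difference was 0.36 (exact permutation p = 0.0317), and it did not pass after adjustment over the 5 ratios (adjusted p = 0.159). Without sham replicate 1, a library marked as a pool, it was 0.43 (exact permutation, adjusted p = 0.0397). Without both pooled libraries it was 0.35 (adjusted p = 0.0714), and without the 2 libraries high in Xist it was 0.28 (adjusted p = 0.286). In the comparison without the pooled libraries the groups did not overlap, and so few libraries allow no smaller exact p.

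**Figure D4:**
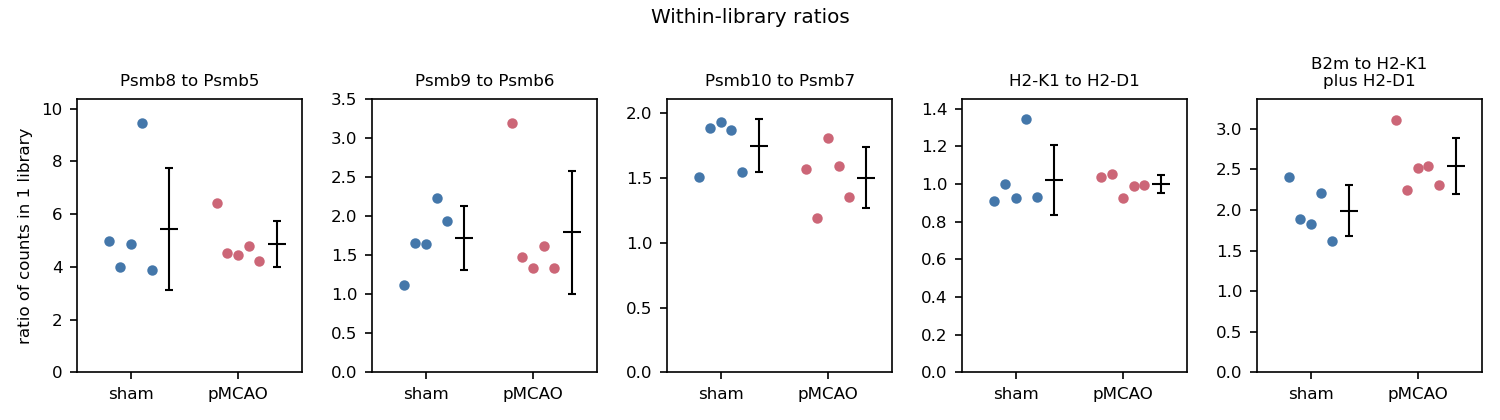
Ratio of counts within each library for 5 pairs of genes, in 5 sham (blue) and 5 pMCAO (red) libraries, replicates 1 to 5 from left to right, with the arithmetic mean and SD in black and axes that start at 0. In the last panel the pMCAO libraries range from 2.24 to 3.10 and the sham libraries from 1.62 to 2.41.

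As Nlrc5 drives transcription of most, not all, of the other genes, its level was compared with theirs across the 10 libraries (TMM log2 CPM, prior count 2, 100000 permutations). Of 9 relations, 0 passed an adjusted p of 0.05. Pearson's r ran from −0.25 (Tapbp, permutation p = 0.485) to 0.22 (Tap1, permutation p = 0.520), with an adjusted p of 0.923 for each, and Spearman's rho was highest for Psmb9, at 0.54 (permutation p = 0.114, adjusted 0.801). Without pMCAO replicate 2 and sham replicate 5, the libraries farthest from the median of Nlrc5, r ran from −0.052 (Tap2) to 0.58 (Psmb9). The sign of r turned without them for Tapbp (to 0.53), B2m (from −0.064 to 0.33) and Psmb8 (from −0.13 to 0.093), so these relations rested on those libraries. Within groups, as deviations from each group's mean, r ran from −0.44 (Psmb8) to 0.077 (Tap1). Groups of 5 were too small for a separate r in each.

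The genes around the 10 were taken from lists of the wider pathway, which were set with earlier results of these data known, and 0 of them passed an FDR of 0.05 in edgeR's test (smallest 0.922). Of 9 proteasome activators and assembly factors, 7 were below 0 by estimate (median −0.34), and 2, both lower, reached an unadjusted p under 0.05. Psmg3, an assembly chaperone of the core particle, was at 9.74, 12.1, 15.5, 9.31 and 12.3 CPM in sham and at 5.86, 9.02, 4.45, 6.48 and 8.54 CPM after pMCAO, and every pMCAO library was below every sham library, as in 0.537% of all genes in this direction. Its log2 fold change was −0.77 (SE 0.28, unadjusted p = 0.0169, FDR 0.922, edgeR). Psme2, a subunit of the interferon-inducible PA28 cap, was at 52.1 ± 14.7 CPM in sham and 33.2 ± 10.8 CPM after pMCAO (log2 fold change −0.65, SE 0.28, unadjusted p = 0.0381, FDR 0.922, edgeR). Of the 11 other subunits of the core particle, 8 were below 0, with a median of −0.12 and 0 at an unadjusted p under 0.05, and the smallest p were those of Psma5 (−0.27, unadjusted p = 0.156) and Psmb3 (−0.24, unadjusted p = 0.211, both FDR 0.922, edgeR).

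Of 19 nonclassical class I and class I-like genes, 18 were in the table and tested, 14 were below 0 (median −0.32) and 2, both lower, reached an unadjusted p under 0.05. H2-T23 (Qa-1), which presents leader peptides of other class I molecules to natural killer cell receptors, was at 269, 279, 267, 204 and 180.0 CPM in sham and at 149.5, 212, 158, 109 and 140.2 CPM after pMCAO. Only pMCAO replicate 2 lay within the sham range. Its log2 fold change was −0.64 (SE 0.20, unadjusted p = 0.0068, FDR 0.922, edgeR), and that of H2-Q4 was −0.41 (SE 0.16, unadjusted p = 0.0229, FDR 0.922). Reads of this multigene family may be split between near-identical copies.

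Among 11 of 12 listed chaperones and trimming enzymes that were in the table, 9 were below 0 (median −0.096). Calreticulin (Calr), a chaperone of the loading complex, was at 301 ± 78.1 CPM in sham and 204 ± 76.0 CPM after pMCAO (−0.56, SE 0.25, unadjusted p = 0.0458, FDR 0.922, edgeR), and Pdia3, its partner in the same complex, was at 543 ± 165 and 395 ± 88.3 CPM (−0.46, unadjusted p = 0.0685, FDR 0.922). Of 21 regulators of class I transcription, 14 were below 0 with a median of −0.048 and 0 had an unadjusted p under 0.05. Irf1, an interferon-induced activator of this pathway, had a log2 fold change of −0.37 (SE 0.20, unadjusted p = 0.0821) and Ifnar2, a chain of the type I interferon receptor, one of 0.29 (unadjusted p = 0.103, both FDR 0.922, edgeR). The lists of interferon-gamma inducible GTPases and of class II presentation genes had medians near that of all genes. The 14 interferon-gamma inducible GTPases had a median of −0.029, with 8 below 0 and 0 at an unadjusted p under 0.05, and the smallest p were those of Gbp3 (−0.52, unadjusted p = 0.0632) and Igtp (−0.48, unadjusted p = 0.152, both FDR 0.922, edgeR). The 11 class II presentation genes had a median of −0.031, with 8 below 0 and 0 at an unadjusted p under 0.05, and the smallest p was that of H2-DMb1 (−0.34, unadjusted p = 0.0948, FDR 0.922, edgeR), followed by H2-Eb1 (−0.28, unadjusted p = 0.285, FDR 0.925). Whether any of these lists differed from the 10 genes or from each other was not tested.

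Class I genes are expressed by nearly all nucleated cells, so markers of other cell types were summed in each library. Those of T and NK cells were below 0 in 12 of 12 genes by estimate (median −0.75, 0 at an unadjusted p under 0.05), with a sum of 223 to 599 CPM in sham and 222 to 378 CPM after pMCAO. The largest member of that sum by mean was Cd4 (148 ± 23.6 CPM in sham and 134 ± 35.2 CPM after pMCAO, log2 fold change −0.14). The CD3 genes were far lower, so the sum is weighted toward Cd4. Cd3d was at 22.7 and 12.4 CPM (−0.87), Cd3e at 17.5 and 16.1 CPM (−0.13) and Cd3g at 26.8 and 14.1 CPM (−0.93). Whether Cd4 RNA came from T cells was not tested. Epithelial markers (7 of 10 below 0, median −0.49) summed to 484 to 1141 CPM and 161 to 1492 CPM, B and plasma cell markers (8 of 10, median −0.050) to 5983 to 147088 CPM and 6675 to 169723 CPM, and dendritic cell markers (5 of 8, median −0.15) to 246 to 577 CPM and 185 to 570.3 CPM. Stromal and endothelial markers (4 of 10 below 0, median 0.017) summed to 74.7 to 106 CPM and 56.2 to 96.8 CPM, and granulocyte markers (3 of 4 tested, median −0.071) to 70.3 to 809 CPM and 60.2 to 429 CPM, where S100a9, Ly6g, Cxcr2 and Epx were not in the table. Most of the granulocyte sum was Cpa3 (373 ± 266 CPM in sham and 166 ± 145 CPM after pMCAO). Its log2 fold change was −1.17 (SE 0.61, unadjusted p = 0.0797, FDR 0.922, edgeR). Macrophage markers were above 0 in 8 of 12 genes (median 0.10), with sums of 3551 to 9689 CPM and 5038 to 10748 CPM. The sums overlapped between the groups for every cell type, and their part in the levels of the class I genes was not tested.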

How the data were processed

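The authors deposited raw, unnormalized counts for each gene and, beside them, CPM values, which equal the counts scaled to each library's listed total (largest difference 0.0005). The deposited fold changes, mean expression, p-values and FDRs of the authors' own comparison were not used. The submitters' processing notes name STAR, featureCounts, limma and GRCm38/mm10. Versions, annotation and strandedness are not given in the sources used here.

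Counts of 17279 genes were filtered with filterByExpr (16949 kept), scaled by TMM and compared between 5 sham and 5 pMCAO libraries, with no covariate, by edgeR (version 4.0.16, R version 4.3.3) and its quasi-likelihood test, with Benjamini-Hochberg adjustment over all genes and a threshold of 0.05. The standard error was derived from the fold change and its F statistic. Ratios used a prior count of 0.5. Alternatives were DESeq2 1.42.0, limma-voom (limma 3.58.1), other scalings, no filter, the replicate number as a block, and fits without libraries. Total-count scaling was added after the data were seen. Genes named are the 10, the subunits Psmb5, Psmb6 and Psmb7, 3 macrophage markers, per wider list the 2 with the smallest p and any whose groups do not overlap, and the 5 most like the mean of the 10. The largest markers of the T and NK cell and granulocyte sums are named as well, with the CD3 genes and the other granulocyte markers beside them.

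The members and lists were chosen with earlier results of these data known. No library was a repeat of another, as the chi-square statistic of each pair was at least 39.2 times its degrees of freedom over 16268 genes. What separates the replicates beyond the label is not stated, so p-values measure the spread between these libraries. Exon lengths, as the union of the exons of all transcripts of a gene, and coordinates came from GENCODE M21, and promoters from RefSeq.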

Additional observations from a re-analysis of the deposited data

Results flagged for a closer look

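In each group, the gap between the highest or lowest library and its neighbour was set against the group's range, both on the log2 scale, with Dixon's 95% limit for 5 libraries. The limit was passed in 3 of 30 groups checked, all of them ratios, where chance sets apart about 1 in 20 groups. The Psmb8 to Psmb5 ratio of sham replicate 4 was 9.46 against 3.86 to 4.97 in the other sham libraries (gap 0.718 of the log2 range). The same ratio in pMCAO replicate 1, at 6.41, was just under the limit of 0.71 (gap 0.7098). Psmb5 was at 10.9 CPM in sham replicate 4 and between 32.7 and 45.3 CPM in the other sham libraries. The Psmb9 to Psmb6 ratio of pMCAO replicate 1, the pooled pMCAO library and the one with the fewest counts (6430643), was 3.20 against 1.34 to 1.62 in the other pMCAO libraries (gap 0.783). Psmb6 was at 27.7 CPM there and between 41.3 and 71.1 CPM in the others. The H2-K1 to H2-D1 ratio of sham replicate 4 was 1.34 against 0.909 to 0.997 in the other sham libraries (gap 0.764). Whether pooling or depth bears on these ratios was not tested.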

How the results depend on the processing

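Of the 10 genes, 0 passed an FDR of 0.05 in any of 20 alternative fits, 8 to 10 were below 0, and their median log2 fold change lay between −0.35 and −0.20, the latter without the 2 libraries high in Xist. DESeq2 called 3 genes over the whole table, none of them among the 10, and the other alternatives called 0. The number of the 10 genes at an unadjusted p under 0.05 was 1 as reported (799 of all genes), 3 with DESeq2 (1011), 4 with limma-voom (882), 2 with total-count scaling, chosen after the data were seen (649), 3 without both pooled libraries (462) and 2 without the 2 libraries high in Xist (581). Leaving out single libraries gave 1 to 3, with 2 without sham replicate 1 (622) or pMCAO replicate 3 (1011) and 3 without sham replicate 4 (1181), sham replicate 5 (833) or pMCAO replicate 2 (1268). With the replicate block, it was 5 of the 10 and 1303 of all genes, with 0 called. The deviations of same-numbered libraries correlated from −0.0055 to 0.372, and 5 of 10 libraries correlated best with their own number, which is a hint of pairing from the data. As the labels give no pairing and 2 of the 5 correlations (0.046 and −0.0055) were near 0, the replicate block was kept as an alternative. For the ratios with the replicate block, the smallest exact p that 5 pairs allow is 0.0625, and no adjusted p passed.

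Estimates near 0 turned sign. B2m was at −0.0018 with immunoglobulin genes removed before scaling, −0.0087 without both pooled libraries and −0.089 without the 2 libraries high in Xist, and from −0.13 to 0.096 with single libraries left out. Tapbp was at 0.0029 with DESeq2, 0.0021 with DESeq2 size factors and 0.0037 with upper-quartile scaling, and from −0.072 to 0.030 with single libraries left out. With single libraries left out, the log2 ratio differences ranged from −0.19 to 0.13 (Psmb8 to Psmb5), −0.22 to 0.12 (Psmb9 to Psmb6), −0.053 to 0.088 (H2-K1 to H2-D1) and 0.28 to 0.43 (B2m to the heavy chains). Without both pooled libraries the Psmb9 to Psmb6 difference was −0.36 (exact permutation p = 0.0286, adjusted p = 0.0714), and so few libraries allow no smaller exact p.

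The correlations with Nlrc5 passed under no alternative. As deviations from group means, r was −0.19 (H2-K1), −0.097 (H2-D1), −0.027 (Psmb9) and −0.12 (Psmb10). Without both pooled libraries it was 0.19 (Tap2) and 0.13 (Psmb8), and without the 2 libraries high in Xist 0.36 (B2m), −0.17 (Tap1) and −0.012 (Psmb9). With single libraries left out, r ranged from −0.30 to 0.41 (B2m), −0.15 to 0.15 (Tap2), −0.65 to 0.19 (Tapbp) and −0.34 to 0.097 (Psmb8). The cause of these changes was not tested. Smaller totals in the pMCAO group make its lower counts less precise.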

Other observations

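Among 9219 tested genes with a mean of at least 3 log2 CPM and outside all lists, those whose level followed the mean of the 10 genes most closely over the 10 libraries were Sf3a1, a spliceosome subunit (Pearson's r 0.95, Spearman's rho 0.92), Clca3b, of the calcium-activated chloride channel regulator family (0.94 and 0.88), Cps1, a urea cycle enzyme (0.93 and 0.84), Pdia6, a protein disulfide isomerase of the endoplasmic reticulum (0.93 and 0.99), and Adprh, an ADP-ribose hydrolase (0.92 and 0.90). The mean was taken over standardised log2 CPM. These genes were picked as the highest of many, the libraries share their depth and scaling, and no test was made. By library, the mean of the 10 genes was lowest in pMCAO replicate 4 (−1.33) and pMCAO replicate 5 (−0.86) and highest in sham replicate 2 (0.87), in units of the SD over libraries.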
